A study of Mus musculus with 12 samples.

Results

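Matrix metalloproteinases and their inhibitors were followed as a list of 10 genes, taken by name from the 24499 gene symbols of the deposited count table. They are 6 matrix metalloproteinases (Mmp2, Mmp9, Mmp12, Mmp13, Mmp14 and Mmp19), the membrane-bound metalloproteinase Adam8, and 3 tissue inhibitors of metalloproteinases (Timp1, Timp2 and Timp3). The study compares cells enriched on CD11c beads from tumour-draining lymph nodes of APOE-KO mice, which lack apolipoprotein E, with those of wildtype mice, given in the labels as C57BL6. Mice of both genotypes had been injected with E0771-cOC tumours, E0771 being a mouse mammary carcinoma line, and their nodes were removed on day 9, minced and digested with collagenase and DNase before bead enrichment. There were 6 APOE-KO and 6 wildtype libraries of 3' end reads. The labels give no age or sex, and do not say whether each library is a separate animal, so the p-values reflect only how these libraries vary, which may be technical.

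Matrix metalloproteinases are zinc-dependent enzymes that cut extracellular matrix and cell-surface proteins. They are made as inactive precursors, opened by other proteinases, and blocked in the active site by TIMPs. Dendritic cells and macrophages can use them to cross matrix.

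The libraries held 2381477 to 4898360 counts, and a floor of 3 reads in a library stands for 0.525 to 1.59 CPM, reads scaled to a common library size after TMM normalisation. Apoe, the targeted gene, had 13 to 30 reads in APOE-KO libraries and 838 to 2919 in wildtype libraries. Wildtype libraries 1 and 3 and APOE-KO library 5 stood apart in principal components, and the share of 45S ribosomal RNA (Rn45s) ran from 2.71% to 32.2% of counts. Itgax, which encodes CD11c, averaged 298 ± 36.9 CPM in APOE-KO and 278 ± 54.0 CPM in wildtype. The summed CPM of 10 dendritic cell markers was 7624 to 9427 in APOE-KO and 7384 to 9439 in wildtype, most of it from H2-Ab1, Cd74 and Irf8. Of these 10 Sirpa alone passed, and it rose, at 351 ± 26.7 CPM in APOE-KO and 251 ± 34.2 CPM in wildtype (edgeR adjusted p = 0.0382).

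Of the 10 genes, 8 had enough reads to be tested and 2, Mmp13 and Timp1, did not. Mmp12, Mmp19 and Mmp14 were called higher in APOE-KO, and no member was called lower. The fitted log2 fold changes of Timp3, Timp2 and Mmp2 were negative (-0.84, -0.50 and -0.41) and did not pass. By edgeR's quasi-likelihood test, with 0.05 as the limit of the adjusted p, 1.08% of all 10714 tested genes were called higher and 0.411% lower. Every APOE-KO library lay above every wildtype library for 2 of the 8 tested members, Mmp12 and Mmp19, a state found in 1.23% of tested genes. The opposite state was found for 0 members and 0.541% of tested genes. Of the 8 tested members 5 had a positive log2 fold change, against 47.2% of all tested genes, and their median was 0.34, against -0.018 over all genes. Without the 3 libraries that stood apart 2 members were called higher, Mmp12 and Adam8, and 0 lower, against 1.27% and 0.43% of the genes then tested. In bulk samples such as these, more cells of a type and more RNA per cell cannot be told apart.

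**Figure D1:**
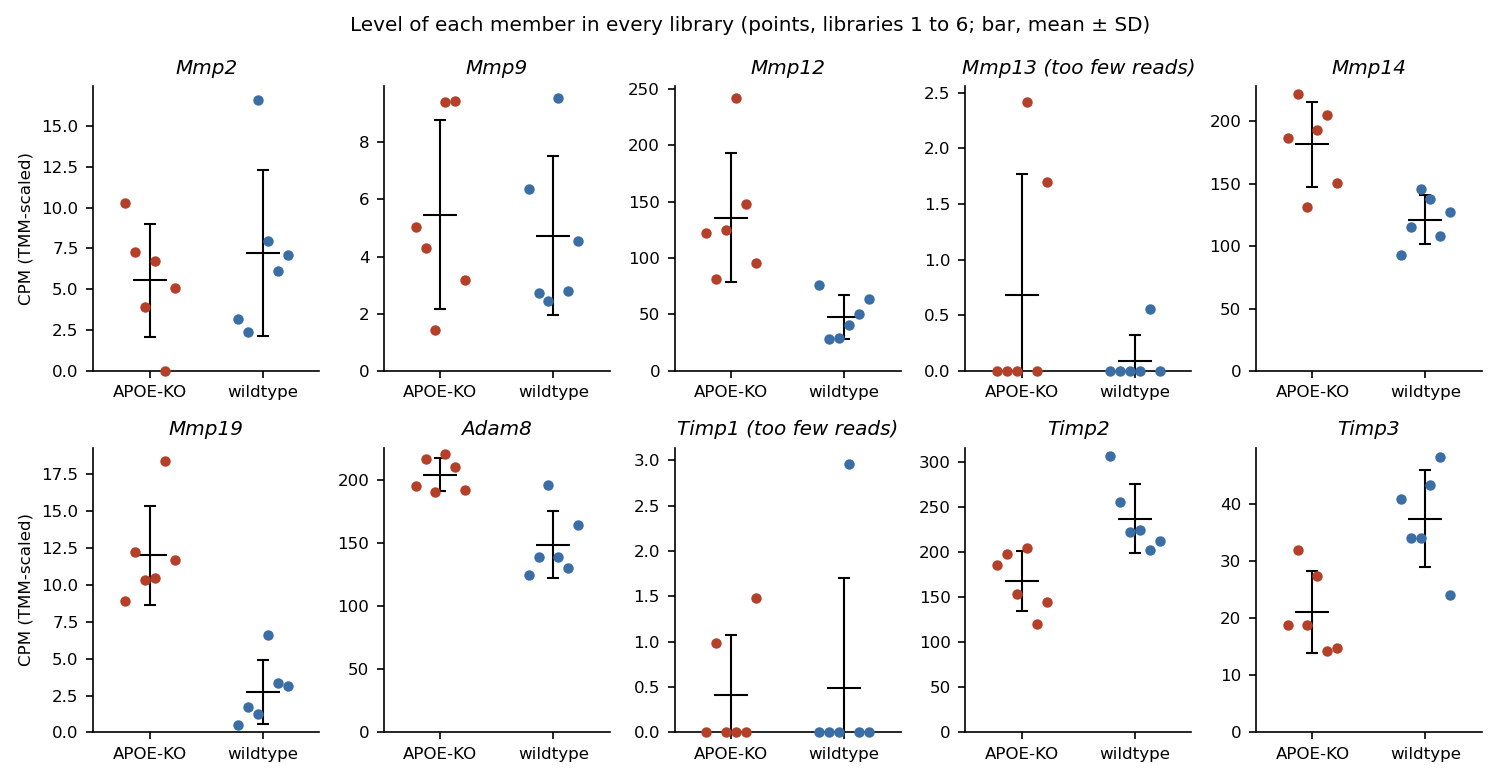
Level of each of the 10 genes in CPM (y axis, linear from 0), with 1 point per library, APOE-KO left and wildtype right, and the mean ± SD of 6 libraries. Mmp12 and Mmp19 are the genes whose points do not overlap between genotypes, and Mmp13 and Timp1 sit at 0 in most libraries.

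Mmp12, macrophage elastase, was the member with the smallest p. It had a lowest, median and highest level of 81.8, 124 and 242 CPM in APOE-KO libraries, against 27.8, 45.2 and 75.9 CPM in wildtype libraries. The lowest APOE-KO library, number 2, thus lay above the highest wildtype library, number 1. The means were 136 ± 56.8 CPM in APOE-KO and 47.9 ± 19.3 CPM in wildtype (SD, n = 6 each), from 3079 reads in APOE-KO and 974 in wildtype, a 2.87-fold higher level (log2 fold change 1.52 ± 0.25 SE, edgeR adjusted p = 0.00111). APOE-KO library 4, the highest, had 899 reads, and without it the log2 fold change was 1.28. The call held in each of the 12 fits without 1 library (adjusted p up to 0.00409) and without the 3 libraries that stood apart (log2 fold change 1.55, adjusted p = 0.000511). It ended with a mature dendritic cell marker covariate (0.97, adjusted p = 0.767). The summed CPM of those markers did not overlap between genotypes, so that fit cannot fully separate the markers from genotype. The relative spread between libraries was alike in both genotypes, with a coefficient of variation of 41.9% in APOE-KO and 40.4% in wildtype. Counting alone gives 4.41% in APOE-KO and 7.85% in wildtype.

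Mmp12 lies on chromosome 9 from 7344381 to 7369499, plus strand (GENCODE vM21, GRCm38, the assembly that the files' mm10 also names), a protein-coding gene inside a cluster of matrix metalloproteinase genes. RefSeq lists 2 start sites for it. The windows from 250 bases before to 50 after each start are printed here because Mmp12 carries the clearest difference, with the window of Mmp13, the other member in that cluster, and of Mmp14, another gene that rose. All are from RefSeq (GRCm38.p6), plus strand. Capitals mark matches on either strand to 3 motifs that do not overlap here: TGANTCA, the AP-1 element known from many metalloproteinase promoters, GAGGAA, the PU-box of the myeloid factor PU.1 (TTCCTC on the printed strand), and TATAAA.
Mmp12 upstream start, chr9:7344147-7344446: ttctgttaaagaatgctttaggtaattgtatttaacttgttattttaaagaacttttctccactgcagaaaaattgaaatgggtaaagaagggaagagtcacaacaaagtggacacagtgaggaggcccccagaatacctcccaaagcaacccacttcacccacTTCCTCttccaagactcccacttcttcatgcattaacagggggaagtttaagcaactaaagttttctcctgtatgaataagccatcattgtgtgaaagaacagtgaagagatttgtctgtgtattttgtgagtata
Mmp12 downstream start, chr9:7347124-7347423: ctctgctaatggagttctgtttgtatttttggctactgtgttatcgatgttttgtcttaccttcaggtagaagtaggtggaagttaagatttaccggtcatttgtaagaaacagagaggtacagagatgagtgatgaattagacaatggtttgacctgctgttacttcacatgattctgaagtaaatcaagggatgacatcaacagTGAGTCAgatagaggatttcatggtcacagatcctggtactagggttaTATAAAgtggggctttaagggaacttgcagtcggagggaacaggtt
Mmp13, chr9:7272264-7272563: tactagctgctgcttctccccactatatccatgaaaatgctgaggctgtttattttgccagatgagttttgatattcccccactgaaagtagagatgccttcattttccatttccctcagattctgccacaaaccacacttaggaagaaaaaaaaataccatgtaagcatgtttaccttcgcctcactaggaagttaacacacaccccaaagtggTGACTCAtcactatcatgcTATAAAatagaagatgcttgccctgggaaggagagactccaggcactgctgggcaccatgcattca
Mmp14, chr14:54431348-54431647: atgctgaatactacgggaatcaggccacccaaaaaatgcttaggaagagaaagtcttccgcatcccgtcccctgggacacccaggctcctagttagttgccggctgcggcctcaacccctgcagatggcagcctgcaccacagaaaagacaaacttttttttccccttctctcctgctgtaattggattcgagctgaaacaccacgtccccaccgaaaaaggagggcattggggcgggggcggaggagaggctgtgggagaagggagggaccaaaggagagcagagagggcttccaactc

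Windows were found for 7 of the 10 genes, 8 windows in all, and Mmp2, Mmp9 and Mmp19 have no entry. TGANTCA was in 2 windows, the downstream start of Mmp12 (TGAGTCA, from 44 bases before the start) and Mmp13 (TGACTCA, from 35 bases before the start), while 7.81% of the 32851 promoter windows in the table hold it. TATAAA was in the same 2 windows, from 16 bases before the Mmp13 start and just after the Mmp12 start, and in 13.6% of all windows. GAGGAA was in the upstream Mmp12 window alone, and in 28.3% of all windows. None of the 3 motifs occurred in the windows of Mmp14, Adam8, Timp1, Timp2 or Timp3. A match describes letters and not a bound site, and a 3' library does not show which start was used.

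Around Mmp12, 9 protein-coding Mmp genes lie within 427 kb. Only Mmp12 and Mmp7 of them had enough reads to be tested. Mmp7, matrilysin, had 78 reads over APOE-KO and 60 over wildtype libraries (log2 fold change 0.61, edgeR adjusted p = 0.834). Mmp3, a stromelysin, had 16 reads in APOE-KO and 13 in wildtype. Mmp8, the neutrophil collagenase, had 5 reads in APOE-KO and 34 in wildtype. Mmp1b, whose gene overlaps Mmp12 on the other strand, had 0 reads in both genotypes.

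**Figure D2:**
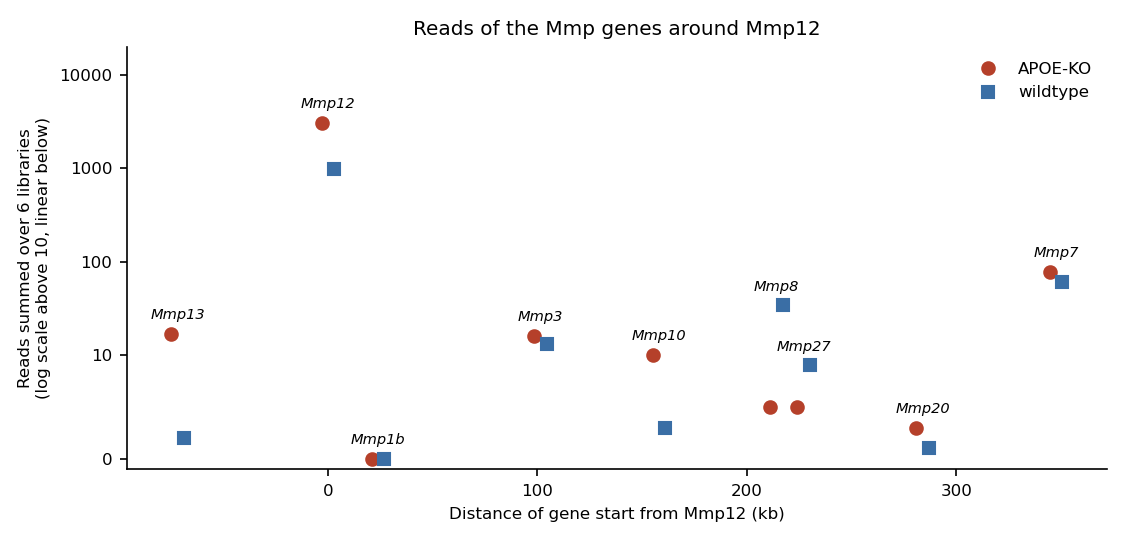
Reads summed over the 6 APOE-KO libraries (circles) and the 6 wildtype libraries (squares) for each Mmp gene of the cluster, by distance of its start from that of Mmp12 in kb; the y axis is logarithmic above 10 reads and linear below. Mmp12 stands at 3079 and 974 reads, and the next highest is Mmp7 at 78 and 60.

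Mmp19, a widely expressed metalloproteinase that cuts basement membrane proteins, had the largest fold change among the members and few reads. Its lowest, median and highest levels were 8.93, 11.1 and 18.4 CPM in APOE-KO libraries, against 0.531, 2.41 and 6.60 CPM in wildtype libraries. All APOE-KO libraries lay above all wildtype libraries, with wildtype library 4 (29 reads) and APOE-KO library 5 (74 reads) highest in their genotypes. The means were 12.0 ± 3.34 CPM in APOE-KO and 2.75 ± 2.18 CPM in wildtype (SD, n = 6 each), from 273 reads in APOE-KO and 65 in wildtype, a 4.18-fold higher level (log2 fold change 2.06 ± 0.46 SE, edgeR adjusted p = 0.0178). The call held in the 12 fits without 1 library (adjusted p up to 0.0449), with a log2 fold change of 2.56 when wildtype library 4 was left out and 1.90 when APOE-KO library 5 was. It ended without the 3 libraries that stood apart (log2 fold change 1.5, adjusted p = 0.0753), with an epithelial marker covariate (1.71, adjusted p = 0.690) and with a mature dendritic cell marker covariate (2.82, adjusted p = 0.673). Mmp19 lies on chromosome 10 from 128790910 to 128800824, plus strand, and overlaps Gm47093, not analysed here, and Tmem198b on the other strand, which had 137 reads in APOE-KO and 150 in wildtype. The sources used here do not say whether the counting used strand, so reads of the pair cannot be told apart with certainty.

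Mmp14, the membrane-anchored proteinase MT1-MMP that cuts collagen and activates the Mmp2 precursor, rose by less. It had a lowest, median and highest level of 132, 189.5 and 222 CPM in APOE-KO libraries, against 92.9, 121 and 146 CPM in wildtype libraries. The groups overlapped through APOE-KO library 3, the lowest, while the other 5 APOE-KO libraries lay above all wildtype libraries. The means were 181 ± 33.9 CPM in APOE-KO and 121 ± 19.6 CPM in wildtype (SD, n = 6 each), 1.49-fold higher (log2 fold change 0.58 ± 0.15 SE, edgeR adjusted p = 0.0449). This call was close to the threshold: it held in 3 of the 12 fits without 1 library, those leaving out wildtype library 3, APOE-KO library 3 and APOE-KO library 6, with adjusted p up to 0.114 in the others and log2 fold changes of 0.51 to 0.66. It ended without the 3 libraries that stood apart (log2 fold change 0.53, adjusted p = 0.0592), and with an epithelial (adjusted p = 0.553), neutrophil (0.0663) or mature dendritic cell (0.3999) marker covariate. Mmp14 lies on chromosome 14 from 54431612 to 54445364, plus strand, and overlaps no other annotated gene.

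Adam8, a sheddase of leukocytes that releases surface proteins such as adhesion molecules, was the most abundant proteinase among the members. It had a lowest, median and highest level of 190.4, 203 and 221 CPM in APOE-KO libraries, against 125, 139 and 196 CPM in wildtype libraries. Wildtype library 3 lay inside the APOE-KO range, and the other 5 lay below it. The difference did not pass (log2 fold change 0.45 ± 0.13 SE, 95% interval 0.19 to 0.72 before adjustment, edgeR adjusted p = 0.0887), and it passed without wildtype library 3 (0.56, adjusted p = 0.0113) and without the 3 libraries that stood apart (0.51, adjusted p = 0.0295). DESeq2 called Adam8 as well (adjusted p = 0.0272). The gene overlaps Mir7062 on its own strand, which had 0 reads, and Gm16201 on the other strand, not analysed here. By that tool 4 members were called higher, Mmp12, Mmp14, Mmp19 and Adam8, against 1.85% of genes, and 2 lower, Timp2 and Timp3, against 0.981%.

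The gelatinases, Mmp2 and Mmp9, which cut denatured collagen and basement membrane collagen, were low and did not pass. Mmp2 had a lowest, median and highest level of 0, 5.90 and 10.3 CPM in APOE-KO libraries, against 2.38, 6.60 and 16.6 CPM in wildtype libraries. It had 0 reads in APOE-KO library 5, where 3 reads would be 0.746 CPM, and 95 reads in wildtype library 3. Its log2 fold change was -0.41 ± 0.58 SE (adjusted p = 0.851), and 0.04 without wildtype library 3. The summed CPM of 12 stromal markers was 166 in APOE-KO library 5 and 137 in wildtype library 3, in a range of 94.3 to 176 in APOE-KO and 93.8 to 137 in wildtype. Cxcl13 was the most abundant of them, with means of 50.3 CPM in APOE-KO and 21.8 CPM in wildtype. The fibroblast gene Dcn had means of 18.0 CPM in APOE-KO and 15.8 CPM in wildtype. Ccl19 of that list had 0 reads throughout, and the part of stromal cells in the Mmp2 values was not tested.

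Mmp9 had a lowest, median and highest level of 1.42, 4.66 and 9.45 CPM in APOE-KO libraries, against 2.45, 3.66 and 9.56 CPM in wildtype libraries. The ranges nearly coincided (log2 fold change 0.22 ± 0.52 SE, 95% interval -0.85 to 1.29, adjusted p = 0.922). It had 127 reads in APOE-KO and 102 in wildtype. The coefficient of variation between libraries was 60.5% in APOE-KO and 59.1% in wildtype, where counting alone gives 21.7% in APOE-KO and 24.3% in wildtype. Neutrophils carry much Mmp9, and 11 neutrophil markers summed to 13.2 to 67.2 CPM in APOE-KO and 17.0 to 37.0 CPM in wildtype. The APOE-KO libraries with the most Mmp9, numbers 5 and 4, held the highest and the lowest neutrophil sum of their genotype. Of the 11 markers 7 had too few reads for a test, and the part of neutrophils in the Mmp9 values was not tested.

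Mmp13, an interstitial collagenase, had too few reads for a test: 17 in APOE-KO, in libraries 4 and 6 only, and 2 in wildtype, both in library 5. In the other 9 libraries it had no read, which allows up to 3 reads in each.

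**Figure D3:**
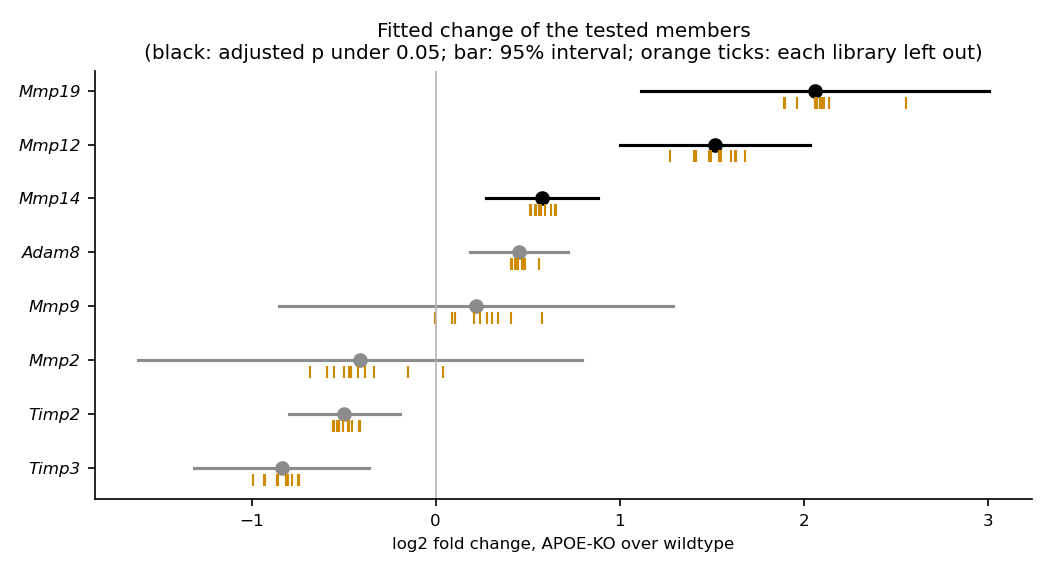
Log2 fold change, APOE-KO over wildtype, of the 8 tested genes (x axis) as fitted by edgeR, with 95% intervals before adjustment; black genes passed an adjusted p of 0.05 and grey ones did not. Orange ticks are the fits without 1 library each, which cross 0 for Mmp2 and Mmp9 and for no other gene shown.

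Among the inhibitors, Timp2 was the most abundant, and no inhibitor passed. Timp2, which both blocks metalloproteinases and tethers the Mmp2 precursor to Mmp14, had a lowest, median and highest level of 120.1, 169.7 and 204.5 CPM in APOE-KO libraries, against 202, 223 and 306 CPM in wildtype libraries. The groups met at their edges, with APOE-KO library 4 above wildtype library 5 and the other 5 APOE-KO libraries below every wildtype library. The means were 168 ± 33.3 CPM in APOE-KO and 237 ± 38.4 CPM in wildtype (SD, n = 6 each; log2 fold change -0.50 ± 0.15 SE, 95% interval -0.80 to -0.20 before adjustment, edgeR adjusted p = 0.100). The adjusted p lay between 0.0683 and 0.248 without 1 library each. Timp2 shares its strand with the overlapping gene Cep295nl, not analysed here, so reads of the pair may not be fully separated.

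Timp3, the inhibitor that binds matrix and also blocks ADAM proteinases, had a lowest, median and highest level of 14.2, 18.8 and 31.98 CPM in APOE-KO libraries, against 24.1, 37.4 and 48.1 CPM in wildtype libraries. Of the APOE-KO libraries 4 lay below every wildtype library, and wildtype library 6, the lowest, lay inside the APOE-KO range. The log2 fold change was -0.84 ± 0.23 SE, a 1.78-fold lower fitted level in APOE-KO (edgeR adjusted p = 0.0750), and it passed without APOE-KO library 2 (-0.99, adjusted p = 0.0249). Timp3 overlaps Syn3 on the other strand, which had 0 reads in APOE-KO and 10 in wildtype.

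Timp1, the inducible inhibitor, had too few reads for a test, with 10 in APOE-KO (libraries 2 and 6) and 13 in wildtype (all in library 4). It lies within Syn1 on the other strand of the X chromosome, which had 18 reads in APOE-KO and 7 in wildtype.

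Reads near the 3' end do not grow in number with transcript length, so length does not bar setting the members side by side. Other differences between genes in how reads were captured and assigned were not assessed. The orders given here are thus of reads. In APOE-KO the order by mean CPM was Adam8 (204), Mmp14 (181), Timp2 (168), Mmp12 (136), Timp3 (21.01), Mmp19 (12.0), Mmp2 (5.55) and Mmp9 (5.46). In wildtype it was Timp2 (237), Adam8 (149), Mmp14 (121), Mmp12 (47.9), Timp3 (37.4), Mmp2 (7.23), Mmp9 (4.74) and Mmp19 (2.75). Neighbours in that order differed by less than either SD for Mmp14 and Timp2, for Timp2 and Mmp12 and for Mmp2 and Mmp9 in APOE-KO, and for Mmp2 and Mmp9 and for Mmp9 and Mmp19 in wildtype. Adam8 and Mmp14 in APOE-KO, and Mmp12 and Timp3 in wildtype, differed by less than the larger of their SDs. The order within these pairs is not resolved.

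The summed level of the 7 proteinase genes was 460 to 684 CPM in APOE-KO libraries and 289 to 391 CPM in wildtype libraries. That of the 3 inhibitor genes was 134 to 232 CPM in APOE-KO libraries and 237 to 347 CPM in wildtype libraries. The ratio of proteinase to inhibitor reads averaged 2.97 ± 0.73 in APOE-KO and 1.24 ± 0.28 in wildtype (SD, n = 6 each), and ranged from 2.36 to 4.40 in APOE-KO and from 0.875 to 1.56 in wildtype. APOE-KO library 5 had the highest ratio and the lowest inhibitor sum. Leaving Mmp12 out of the sum gave 2.23 ± 0.54 (1.91 to 3.30) in APOE-KO and 1.06 ± 0.27 (0.656 to 1.42) in wildtype. The ratio of Mmp14 to Timp2 alone was 1.11 ± 0.31 in APOE-KO and 0.527 ± 0.131 in wildtype. These ratios are of mRNA reads, are carried by Adam8, Mmp14, Mmp12 and Timp2, and are given without a test because the genes were listed with earlier results of these data known.

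**Figure D4:**
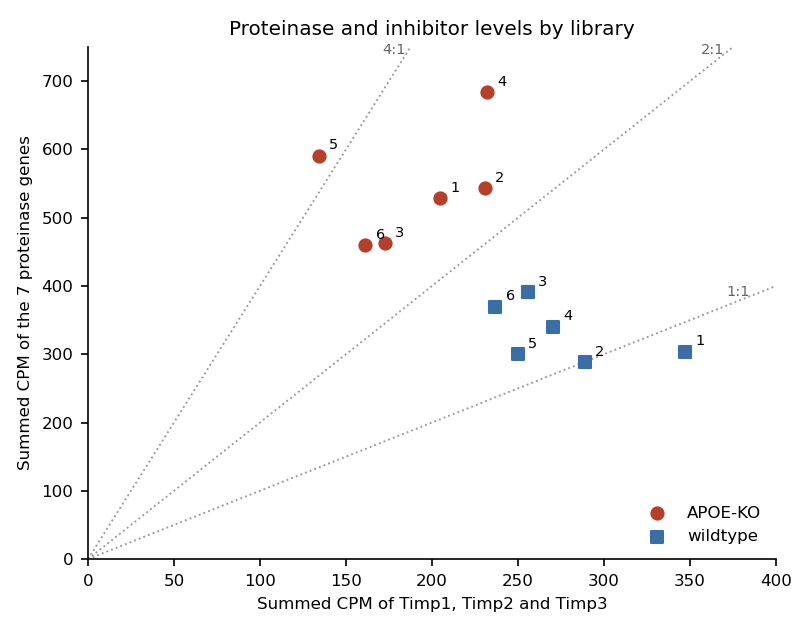
Summed CPM of the 7 proteinase genes (y axis) against that of Timp1, Timp2 and Timp3 (x axis), with 1 point per library labelled by its number, circles for APOE-KO and squares for wildtype. Dotted lines mark ratios of 1, 2 and 4; all APOE-KO libraries lie between 2.36 and 4.40 and all wildtype libraries between 0.875 and 1.56.

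The genes whose log2 CPM most resembled each called member over the 12 libraries were named by Pearson's r, as a description in which the shared genotype difference takes part. For Mmp12 they were the collagen-cutting cathepsin Ctsk (r = 0.94), the chemokine Ccl6 (0.94) and galectin-3, Lgals3 (0.93), all 3 of which passed as higher. Ctsk stood at 7.99 ± 4.99 CPM in APOE-KO and 0.412 ± 0.542 CPM in wildtype. For Mmp19 they were the complement gene C3 (0.94), the lectin receptor Clec4d (0.94) and Uqcr10, a respiratory chain subunit (0.94). C3 rose, standing at 343 ± 62.7 CPM in APOE-KO and 147 ± 26.5 CPM in wildtype. Clec4d (edgeR adjusted p = 0.0850) and Uqcr10 (adjusted p = 0.330) did not pass, and the r of Clec4d with Mmp19 was -0.16 within the APOE-KO libraries and 0.91 within the wildtype libraries. For the other 2, r with Mmp19 was 0.75 to 0.76 within APOE-KO and 0.86 to 0.90 within wildtype. For Mmp14 they were Tmem237 (0.93), Sirpa, a receptor of myeloid cells (0.90), and Adam8 itself (0.89), of which only Sirpa passed (Tmem237 adjusted p = 0.308). Their r with Mmp14 was 0.70 to 0.94 within the 6 APOE-KO libraries and 0.63 to 0.84 within the 6 wildtype libraries. That of the 3 genes named for Mmp12 was 0.73 to 0.88 within APOE-KO and 0.74 to 0.93 within wildtype. The 0.93 was that of Ctsk, whose wildtype mean lay under the floor of 3 reads. All these genes were picked by r over the same libraries, so high values within a genotype follow in part from the choice.

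Other genes of matrix turnover were read from 6 lists, in which no gene passed in either direction. Of 17 further matrix metalloproteinases 4 were tested, with a median log2 fold change of 0.60, and 4 had no read at all. The most abundant was Mmp25, a membrane-type enzyme of leukocytes, at 65.0 ± 15.9 CPM in APOE-KO and 43.2 ± 14.8 CPM in wildtype (adjusted p = 0.182). Of 12 further genes of the ADAM family 10 were tested (median 0.09), led by Adam19 at 201 ± 14.0 CPM in APOE-KO and 183 ± 57.5 CPM in wildtype (adjusted p = 0.823). Of 19 ADAMTS proteinases, secreted enzymes of which some cut proteoglycans, 4 were tested (median -0.16). The most abundant was Adamts10 at 8.06 ± 2.15 CPM in APOE-KO and 8.31 ± 2.61 CPM in wildtype. Of 8 genes listed as further inhibitors or related proteins, Reck and Timp4 among them, 0 had enough reads.

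The proteinase activators and partners, 8 of 12 tested, had a median of 0.37. Their most abundant gene was Cd44, a hyaluronan receptor that docks metalloproteinases at the cell surface, at 699 ± 146 CPM in APOE-KO and 600 ± 176 CPM in wildtype (adjusted p = 0.691). The matrix substrates, 15 of 25 tested, had a median of -0.24, and 5 of the 15 were positive. The most abundant was Sparc, a collagen-binding matrix protein, at 27.2 ± 7.76 CPM in APOE-KO and 41.8 ± 11.7 CPM in wildtype (adjusted p = 0.237).

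**Figure D5:**
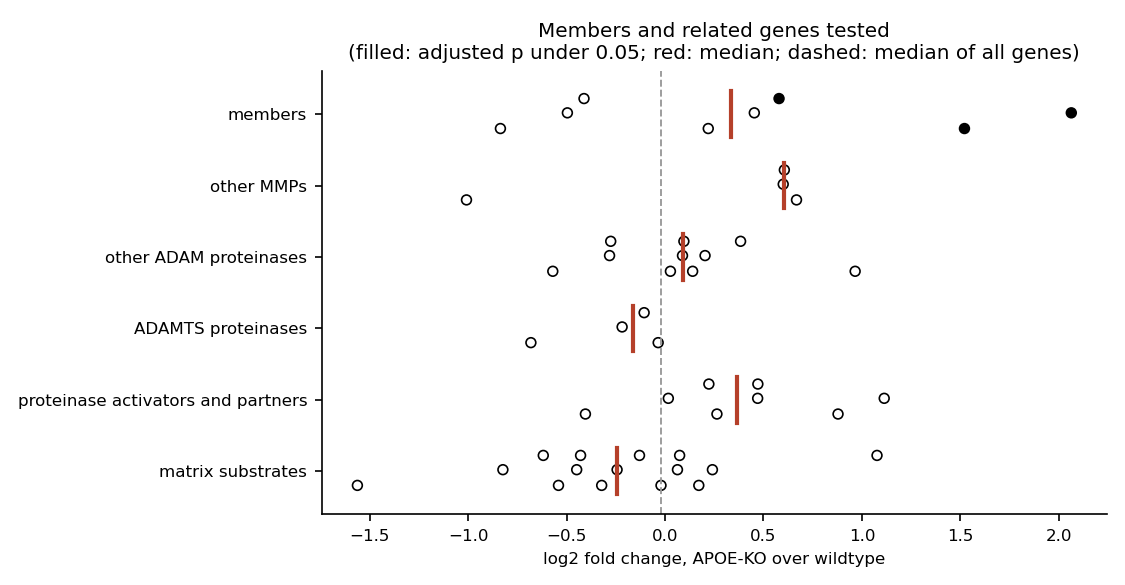
Log2 fold change, APOE-KO over wildtype (x axis), of each tested member and each tested gene of the related lists, 1 circle per gene; filled circles passed an adjusted p of 0.05, red bars are medians and the dashed line is the median of all genes (-0.018). The 3 filled circles are Mmp14, Mmp12 and Mmp19. The list of further inhibitors and related proteins has no tested gene and is not drawn.

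Some marker sums and marker genes differed between genotypes. The summed CPM of 8 mature migratory dendritic cell markers was 2470 to 3375 in APOE-KO and 1753 to 2455 in wildtype, and 3 of the 6 tested rose, Ccr7, Cacnb3 and Ccl22. With the mean log2 CPM of those 6 as a covariate 0 members were called (0.028% of all genes were called higher). The log2 fold change was then 0.97 for Mmp12, 1.18 for Mmp14 and 2.82 for Mmp19. The sums of this list did not overlap between genotypes, though their edges, 2470 and 2455, were close. Overlap of the covariate itself was not checked. This fit thus cannot fully separate its markers from genotype. Epithelial markers, 12 in all, summed to 8.90 to 88.1 CPM in APOE-KO and 72.3 to 136 CPM in wildtype. With the mean log2 CPM of the 6 tested ones as a covariate, 1 member, Mmp12, was called higher (0.224% of all genes). Its log2 fold change was 1.95 (edgeR adjusted p = 0.0031), against 0.66 for Mmp14 and 1.71 for Mmp19 (adjusted p = 0.553 and 0.690). The macrophage markers, 12 in all, summed to 1155 to 1444 CPM in APOE-KO and 1230 to 1616 CPM in wildtype, where C1qb rose and Marco and Timd4 fell. The monocyte markers, 8 in all, summed to 1475 to 1611 CPM in APOE-KO and 1194 to 1594 CPM in wildtype, and Lyz2, lysozyme, rose. The plasmacytoid dendritic cell markers, 7 in all, summed to 1053 to 1376 CPM in APOE-KO and 1290 to 2912 CPM in wildtype, and Siglech, Klk1 and Cox6a2 fell. Of the epithelial list Cdh1, E-cadherin, fell, and of the stromal list Cxcl13, a B cell chemokine, rose. No gene of the neutrophil list or of the 6 remaining lists passed, and the sums of those 6 overlapped between genotypes. Endothelial markers summed to 119 to 162 CPM in APOE-KO and 125 to 229 CPM in wildtype. B cell markers summed to 476 to 599 CPM in APOE-KO and 541 to 742 CPM in wildtype, and plasma cell markers to 300.4 to 567 CPM in APOE-KO and 367 to 496 CPM in wildtype. T cell markers summed to 354 to 489 CPM in APOE-KO and 367 to 450.1 CPM in wildtype, and NK cell markers to 35.1 to 163 CPM in APOE-KO and 72.9 to 257 CPM in wildtype. Mast cell or basophil markers summed to 46.0 to 65.6 CPM in APOE-KO and 54.2 to 87.1 CPM in wildtype. The part of these cells in the members' levels was not tested.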

How the data were processed

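The labels' protocols name a Lexogen 3' FWD kit for the libraries, so reads come from transcript ends. The authors deposited raw read counts per gene symbol, 1 column per library. STAR 2.7.8a, featureCounts 1.5.1, R 4.1.0, DESeq2 1.4 and the build mm10 are named in the submitters' processing notes. Annotation, strand setting, treatment of reads with several matches and molecular identifiers are not named in any source used here. Column names equal the samples' descriptions, and groups follow the genotype given for each sample. The labels name no batch.

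Tests ran in edgeR 4.0.16 under R 4.3.3: filterByExpr (minimum count 10, total 15) left 10714 genes, TMM scaled the libraries, and glmQLFit and glmQLFTest compared genotypes over all genes with Benjamini-Hochberg adjustment at 0.05. SEs are |log2 fold change| over the root of the F statistic. Log2 CPM used a prior count of 2. The scripts were tested on simulated data, where 20.4% of changes set at 1.5-fold and 58.7% of those set at 2-fold were recovered. A gene that did not pass may thus still differ. Alternatives were other scaling, filters, tools (DESeq2 1.42.0, limma-voom with limma 3.58.1), covariates, a replicate block and fits without 1 library. No pair of libraries agreed within counting noise. Intervals and floors cover counting error or the fitted spread only.

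The members, the 6 related lists and the 14 marker lists were chosen with earlier results of these data known. Named were all members, Apoe, list genes that passed or were most abundant, and the 3 genes most like each called member. Genes of the Mmp12 cluster and genes overlapping a member were named for their position.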

Additional observations from a re-analysis of the deposited data

Results flagged for a closer look

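Within the 6 libraries of a genotype, a value was picked out when its gap to the nearest other library exceeded Dixon's 95% critical value as a share of the whole range. Chance picks out about 1 in 20 groups of independent values. Of 22 groups checked 4 were picked out, a number that cannot be set against that rate, since 2 of the groups have reads in a single library and so must be picked out, and the ratio is built from the members. APOE-KO library 5 had 18.4 CPM of Mmp19, against 12.2 CPM in the next APOE-KO library, and a proteinase to inhibitor ratio of 4.40, against 2.95 in the next. Wildtype library 5 held 0.556 CPM of Mmp13, and wildtype library 4 held 2.96 CPM of Timp1, where the other wildtype libraries had no read of those genes.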

How the results depend on the processing

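The directions of Mmp12, Mmp14, Mmp19, Adam8, Timp2 and Timp3 were the same under all 26 alternatives run, and those of Mmp2 and Mmp9 were not. The log2 fold change of Mmp2, -0.41, was 0.32 with the epithelial covariate, 2.30 with the mature dendritic cell covariate and 0.17 without the 3 libraries that stood apart, but -1.20 with limma-voom, and ran from -0.68 to 0.039 without 1 library each, highest without wildtype library 3. That of Mmp9, 0.22, was -0.078 without the 3 libraries and ran from -0.0046 to 0.58 without 1 library each. The 3 members called higher became 1 with the epithelial covariate and 0 with the mature dendritic cell covariate, and were 2 to 4 without 1 library each. The 0 members called lower became 2 by DESeq2, against 0.981% of genes. They were 0 to 1 without 1 library each, 1 being Timp3 without APOE-KO library 2. For the fits without 1 library the share of all genes called in each direction was not counted. The number of members lying wholly below wildtype, 0 of 8, was 0 to 1 without 1 library each. It was 1 without wildtype library 5, wildtype library 6 or APOE-KO library 4. The number lying wholly above wildtype, 2 of 8, was 2 to 3 in those fits. With fewer libraries both states are easier to reach for any gene. Their share of all genes was not counted in those fits, so these counts have no background. Of all genes 160 were called. DESeq2 called 297, the replicate block left 100, the epithelial covariate 32 and the mature dendritic cell covariate 6, and the fits without 1 library gave 99 to 230, with 99 without APOE-KO library 3. The cause of these shifts was not tested. Mmp12 passed in 25 of the 26 alternatives, Mmp19 in 23 and Mmp14 in 11. With limma-voom Mmp14 had an adjusted p of 0.0607. The replicate block, in which libraries of the same number were paired, ended the call of Mmp14 (adjusted p = 0.156) and of no other member. Deviations of same-numbered libraries correlated at -0.077 to 0.018, and no label ties a number to a shared animal or day. The mature dendritic cell covariate and the fit without 3 libraries were chosen after seeing the data. Members under about 10 CPM rest on few reads, and Mmp13 and Timp1 could not be fitted.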
